A study of Mus musculus with 24 samples.

Results

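The 3 livers of circadian time 18 (CT18) were compared with the 3 livers of circadian time 15 (CT15), gene by gene, as CT18 minus CT15. The 6 arrays belong to a set of 24, with 3 arrays at each of 8 times that lie 3 h apart, and every gene named by a single symbol entered the comparison, 19935 in all. In both groups the animals were adult male C57BL/6 mice that had lived for 4 weeks under 12 h of light and 12 h of dim red light, and had then been moved to constant dim red light. Livers were taken on the second cycle after the move, so that neither group had seen a light signal on that day. The series text gives food as freely available and the background as constant darkness. It speaks of 4 time points, whereas the array labels carry 8. The labels give 4 mice taken per time but 3 biological replicates on arrays, each extracted on its own, and do not say how the 3 relate to the 4. Circadian time 12 is by convention the start of the active phase of a nocturnal animal, so CT15 and CT18 lie early in and in the middle of the subjective night.

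The circadian clock of liver cells is a loop in which the transcription factors CLOCK and BMAL1 (gene Arntl) bind E-box sequences and switch on their own repressors, the PER and CRY proteins. The same factors drive the nuclear receptors REV-ERB alpha and beta (Nr1d1, Nr1d2), which hold Arntl down by occupying the sites that ROR receptors use, and the PAR bZIP factors DBP, TEF and HLF, which bind D-boxes. In the liver this loop, together with feeding and circulating hormones, sets the daily course of glucose, lipid, bile acid and amino acid metabolism.

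RNA was measured with Affymetrix Mouse Gene 1.0 ST arrays, and the deposited value of a probe set on an array is a log value from which the probe set's own 24-array median was taken away. A value of 0 is thus the middle of the gene's own day and not an absence of RNA, no level can be compared between genes, and the log base was taken as 2, which the sources used here do not state. A gene was called where limma's moderated test, with one spread per gene estimated from all 24 arrays, gave a Benjamini-Hochberg adjusted p under 0.05 over all 19935 genes. The number of arrays limits the precision: the median standard error of a CT18 minus CT15 difference was 0.080. The interquartile range of an array's values was 0.123, 0.165 and 0.132 in the CT18 arrays and 0.125, 0.174 and 0.121 in the CT15 arrays, against 0.0992 to 0.1998 over all 24, so replicate 2 was the widest array of each time. Small nucleolar RNA genes, 54 of them, averaged 0.0017, -0.21 and 0.00011 in the CT18 arrays and 0.083, 0.20 and -0.026 in the CT15 arrays. Replicate 2 was thus the lowest of the CT18 arrays and the highest of the CT15 arrays in this measure, and it stood well apart from the other 2 at CT18 only. Results with and without the second replicates are given below. Of 10 hepatocyte markers, all lay in the brighter class of probe sets that the rounding of the deposited numbers reveals, against 13.8% of all genes, as did 3 of 10 endothelial, 2 of 12 Kupffer cell, 2 of 10 stellate cell, 1 of 3 red blood cell and 1 of 6 adipocyte markers, whereas 0 lymphocyte, neutrophil, bile duct, pancreas or muscle markers did.

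Liver RNA differed little between CT18 and CT15 for most genes, and the calls were few. Of 19935 genes, 29 were called (0.145%), of which 9 were higher at CT18 (0.0451%) and 20 lower (0.100%). The genes that fell were led by the clock repressors Nr1d1 and Ciart, and those that rose were led by the water channel gene Aqp8. In all 29 the 3 CT18 arrays lay on one side of the 3 CT15 arrays, which was also the case for 1067 of all genes in the higher direction (5.35%) and for 1119 in the lower direction (5.61%). The called differences were between 1.25-fold and 3.11-fold with a median of 1.40-fold, and 10 of the 29 reached 1.5-fold. The median difference over all genes was 0.010, and 2245 genes (11.3%) had an unadjusted p under 0.05, 1040 of them higher and 1205 lower. The call depends on single arrays: without replicate 2 of CT18, 5 genes were called higher and 1 lower, and without replicate 3 of CT18, 42 were called higher and 90 lower. Leaving out replicate 1 of CT18 left 5 higher and 4 lower calls, and leaving out replicate 1 of CT15 left 4 higher and 4 lower. Without replicate 2 of CT15 there were 24 higher and 45 lower calls, and without its replicate 3 there were 8 higher and 10 lower. Without both second replicates, a fit tried after the data had been seen, 6 genes were called higher and 10 lower, and 7 of these 16 were among the 29. Quantile normalisation of the deposited values left Aqp8 as the only call, and a fit of the 6 arrays alone kept 2 of the 29, Ciart and Nr1d1.

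**Figure D1:**
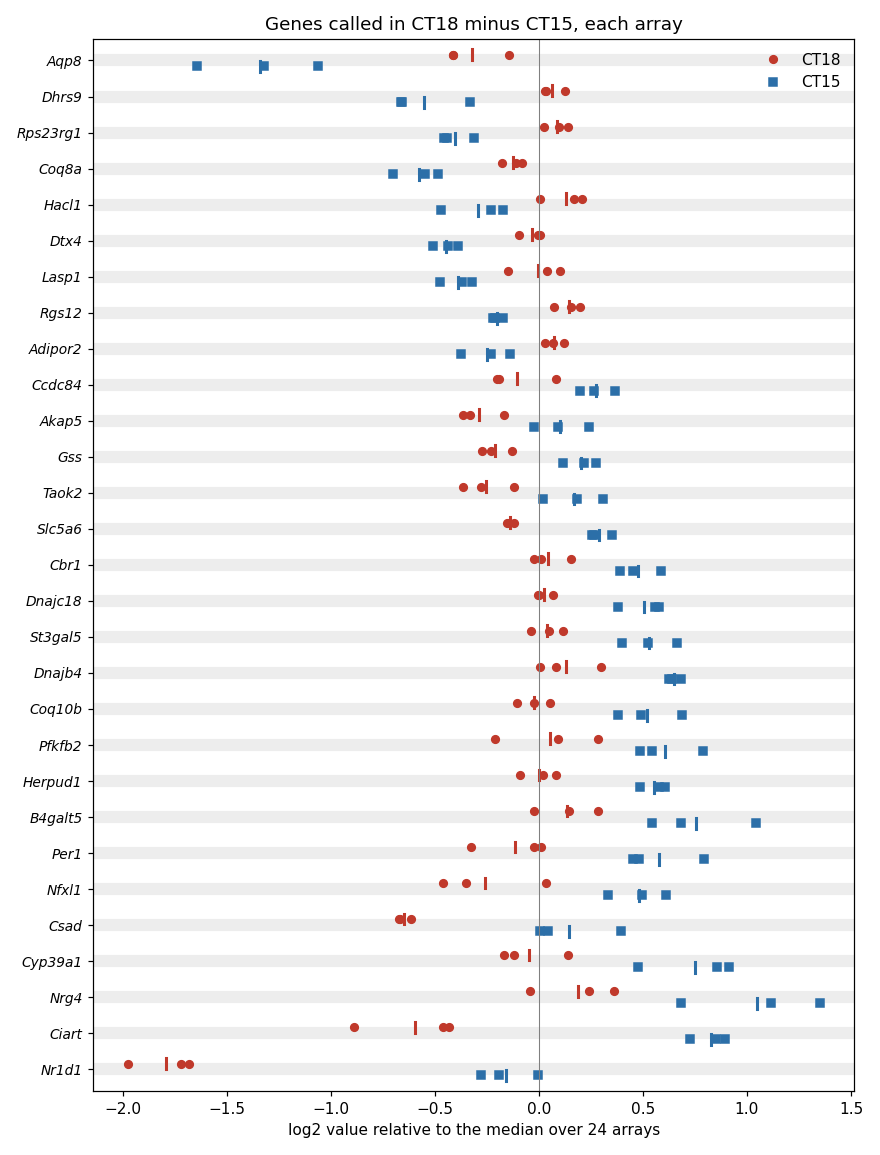
Log2 value, relative to the gene's median over 24 arrays, of each CT18 array (red circles) and each CT15 array (blue squares) for the 29 called genes, with vertical ticks at the group means. In the 9 genes at the top the CT18 arrays lie above the CT15 arrays, and in the other 20 they lie below; the widest gap is that of Nr1d1, with -1.98 to -1.68 at CT18 and -0.28 to -0.0034 at CT15.

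In the list of clock repressors, REV-ERB receptors and PAR bZIP factors, 3 of 13 genes fell and 0 rose at CT18, against a background of 0.100% called lower. Nr1d1, which encodes REV-ERB alpha, read -1.98, -1.72 and -1.68 in the CT18 livers and -0.0034, -0.28 and -0.19 in the CT15 livers. The ranges were far apart, and the difference was -1.63 ± 0.29 (SE), 3.11-fold lower at CT18, with a limma adjusted p of 0.0248. CT18 was the lowest of the 8 times for this gene, which stood highest at CT06, with a mean of 1.72. Ciart, also known as Chrono, encodes a repressor that binds BMAL1. It read -0.46, -0.89 and -0.43 in the CT18 livers and 0.85, 0.90 and 0.73 in the CT15 livers. The lowest CT15 array stood above the highest CT18 array by more than the spread within either group, and the difference was -1.42 ± 0.23 (SE; adjusted p = 0.0126). The array carries a pair of probe sets for Ciart, with differences of -1.74 (adjusted p = 0.0060) and -1.10 (adjusted p = 0.096), so only one of them passed when each was tested by itself.

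Per1, a period gene that forms the inhibitory complex with CRY proteins and also answers to glucocorticoids, was lower as well. Its values were -0.023, 0.0083 and -0.33 at CT18 and 0.80, 0.48 and 0.45 at CT15, without overlap, a difference of -0.69 ± 0.13 (SE; adjusted p = 0.0374). The call of Per1 held in 1 of the 6 fits that left out an array, that of Nr1d1 in 2 and that of Ciart in 4. The other members were not called. In 3 of them the CT18 arrays lay below all CT15 arrays, as they did in 5.61% of all genes. These were Dbp with a difference of -0.86 (adjusted p = 0.259), Nr1d2 with -0.67 (adjusted p = 0.328) and Tef with -0.37 (adjusted p = 0.168). Dbp read -0.76, -0.68 and -0.74 at CT18 and 0.045, 0.10 and 0.27 at CT15. Those groups were tight and apart, but the standard error of 0.29 rests on the spread of Dbp at all 8 times. The remaining members were closer to 0: Per3 -0.25, Hlf -0.15, Cry1 0.16, Cry2 -0.10, Per2 -0.09, Bhlhe41 0.065 and Bhlhe40 -0.04. Per2 was 0.59, 0.38 and 0.75 at CT18 and 0.74, 0.76 and 0.50 at CT15, overlapping values that both lie above its daily median. The median difference of the 13 genes was -0.25, against 0.010 over all genes, and it was -0.13 without replicate 2 of CT18.

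The activating arm gave no call. Arntl, the gene of BMAL1, read 0.17, 0.11 and 0.26 at CT18 and -0.41, -0.32 and -0.11 at CT15. The arrays did not overlap, yet the difference of 0.46 ± 0.13 (SE) had an adjusted p of 0.165. Clock differed by 0.17, Rora, which encodes a receptor for ROR elements, by -0.15, Nfil3, a repressor that competes for D-boxes, by -0.05 and Arntl2 by 0.00021. The median of the 5 measured activators and ROR-element genes was 0.00021. Of these genes 0 were called and 2 had an unadjusted p under 0.05 (11.3% of all genes).

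**Figure D2:**
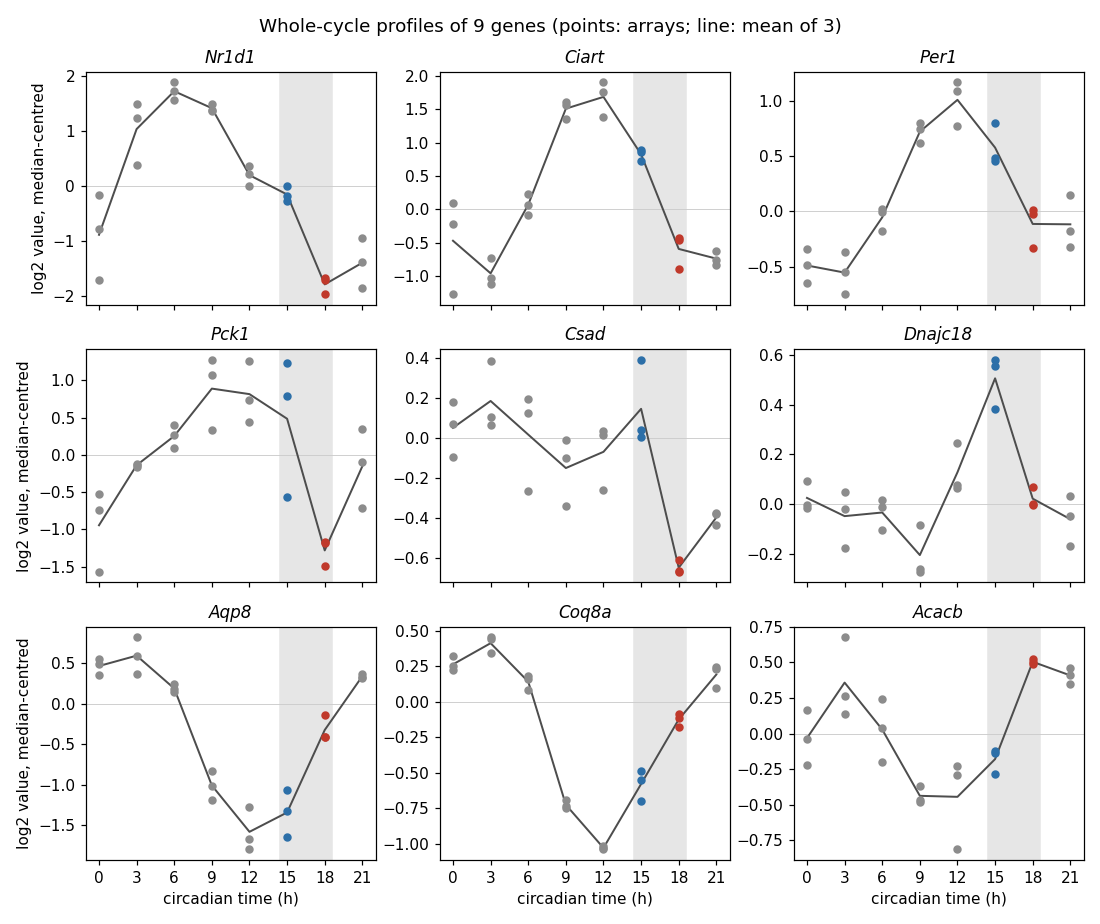
Log2 value relative to the gene's 24-array median against circadian time in hours for 9 genes, with every array as a point, the mean of 3 as a line, CT18 in red, CT15 in blue and the step between them shaded. Nr1d1, Csad and Pck1 have their lowest mean at CT18, Dnajc18 its highest mean at CT15, and Aqp8 and Coq8a climb through the step after a lowest mean at CT12.

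The other genes that fell at CT18 belong to several branches of liver metabolism and protein handling. Csad, which encodes the cysteine sulfinic acid decarboxylase of taurine synthesis, read -0.61, -0.67 and -0.67 in the CT18 livers and 0.042, 0.0069 and 0.39 in the CT15 livers. The difference was -0.80 ± 0.12 (SE; adjusted p = 0.0106), and the CT18 mean of -0.65 was the lowest of the day. Cyp39a1, an oxysterol hydroxylase that feeds bile acid synthesis, read -0.17, 0.14 and -0.12 at CT18 and 0.86, 0.48 and 0.91 at CT15, a difference of -0.80 ± 0.15 (SE; adjusted p = 0.0340). Its CT15 mean of 0.75 was the highest of the 8 times. Nrg4, a secreted ligand of the receptor ErbB4, read 0.24, -0.040 and 0.36 at CT18 and 1.35, 0.68 and 1.12 at CT15. These groups did not overlap either, and the difference was -0.86 ± 0.15 (SE; adjusted p = 0.0232).

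A pair of called genes act in consecutive steps of ganglioside synthesis: B4galt5 encodes a lactosylceramide synthase, and St3gal5 the GM3 synthase that uses its product. B4galt5 read 0.15, -0.025 and 0.29 at CT18 and 1.04, 0.54 and 0.68 at CT15, and its difference was -0.62 ± 0.12 (SE; adjusted p = 0.0319). St3gal5 read -0.040, 0.047 and 0.11 at CT18 and 0.52, 0.40 and 0.67 at CT15, with a difference of -0.49 ± 0.10 (SE; adjusted p = 0.0387). Both had their highest mean at CT15. Pfkfb2, whose enzyme sets the level of the glycolytic activator fructose 2,6-bisphosphate, fell by 0.55, and Slc5a6, a transporter of biotin and pantothenate, fell by 0.43. Gss, the glutathione synthetase gene, fell by 0.41 and Cbr1, a carbonyl reductase gene, by 0.43. Coq10b, which encodes a coenzyme Q-binding protein, read -0.10, -0.024 and 0.055 at CT18 and 0.49, 0.69 and 0.38 at CT15, and fell by 0.55 (adjusted p = 0.0387). Taok2, a kinase gene, fell by 0.43, Akap5, which encodes an anchoring protein for protein kinase A, by 0.39, Ccdc84 by 0.38 and Nfxl1 by 0.74. The Nfxl1 value is the mean of a pair of probe sets, with -0.79 (limma adjusted p = 0.060) and -0.68 (adjusted p = 0.034). Only the latter passed when each was tested by itself.

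The J-domain co-chaperone genes Dnajb4 and Dnajc18, whose proteins hand clients to HSP70, were both lower. Dnajc18 read 0.0020, 0.068 and -0.0021 at CT18 and 0.38, 0.58 and 0.56 at CT15, and the difference of -0.48 ± 0.07 (SE; adjusted p = 0.0102) kept its call in all 6 fits that left out an array. Its CT15 mean of 0.51 stood alone, since the means of the other 7 times lay between -0.20 and 0.13. Dnajb4 read 0.0078, 0.084 and 0.30 at CT18 and 0.62, 0.68 and 0.64 at CT15, a difference of -0.52 ± 0.10 (SE; adjusted p = 0.0387). Herpud1, a component of the degradation route for misfolded proteins of the endoplasmic reticulum, read 0.018, -0.091 and 0.080 at CT18 and 0.60, 0.58 and 0.48 at CT15. The CT18 arrays lay near the daily median and the CT15 arrays well above it, with a difference of -0.55 ± 0.09 (SE; adjusted p = 0.0209).

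The 9 genes that rose at CT18 mostly had their lowest mean at CT12 or CT15. Aqp8, which encodes a water channel of hepatocytes, read -0.41, -0.14 and -0.41 in the CT18 livers and -1.64, -1.06 and -1.32 in the CT15 livers. The difference was 1.02 ± 0.14 (SE), 2.03-fold higher at CT18, with an adjusted p of 0.0048, and the arrays of the groups were far apart. Coq8a, whose protein is an atypical kinase needed for coenzyme Q synthesis, read -0.11, -0.083 and -0.18 at CT18 and -0.55, -0.70 and -0.49 at CT15. Its difference of 0.45 ± 0.06 (SE) had the smallest adjusted p of all genes, 0.0018. The calls of Aqp8 and Coq8a held in all 6 fits that left out an array, as did that of Dnajc18 alone among the other 27. Those of Csad, Dhrs9 and Dtx4 held in 5 of the 6, Lasp1 and Hacl1 in 4, and Herpud1, Rps23rg1, Akap5 and Taok2 in 3. Nrg4, Nfxl1, Gss, Adipor2, B4galt5, Cbr1, Cyp39a1, Pfkfb2 and St3gal5 kept theirs in 2, and Slc5a6, Ccdc84, Rgs12, Dnajb4 and Coq10b in 1. Dhrs9, a dehydrogenase gene of retinoid and steroid metabolism, read 0.036, 0.028 and 0.13 at CT18 and -0.66, -0.33 and -0.66 at CT15, a difference of 0.61 ± 0.09 (SE; adjusted p = 0.0102). All 3 CT18 arrays lay just above the daily median and all 3 CT15 arrays well below it.

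Hacl1, a lyase gene of peroxisomal fatty acid alpha-oxidation, rose by 0.42 (adjusted p = 0.0267), and Adipor2, an adiponectin receptor gene, by 0.32 (adjusted p = 0.0312). Dtx4, a ubiquitin ligase gene of the Deltex family, rose by 0.41, Lasp1, which encodes an actin-binding protein, by 0.39, and Rgs12, a regulator of G-protein signalling, by 0.34. Rps23rg1 differed by 0.49 (adjusted p = 0.0232), but it is a retrocopy of the ribosomal protein gene Rps23, so that its probes and those of near-identical copies may not be separable and the value is uncertain. Rgs12 was the one called gene with its highest mean at CT18 and its lowest at CT15. Of the 9 genes that rose, 5 had their lowest mean at CT12, 3 at CT15 and 1 at CT09, and 5 had their highest mean at CT21, 3 at CT03 and 1 at CT18. Of the 20 that fell, 12 had their highest mean at CT15, 6 at CT12, 1 at CT06 and 1 at CT03, whereas CT18 was the lowest time for 4 of them, CT21 for 7 and CT03 for 6.

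Promoters of 5 called genes are printed here because they hold clock-related sequences, from 250 bases before to 50 bases after the gene start, as given by RefSeq on build GRCm38.p6, 5′ to 3′ on the strand of the gene. Capitals mark E-boxes (CACGTG), a D-box (TTATGTAA, read on the other strand as in Coq10b) or the core of a ROR element (TAGGTCA, read on the other strand as in Dhrs9). Ciart lies at chr3:95882179-95882478 on the minus strand, and its E-boxes start 116, 58 and 44 bases before the gene start. The first of the promoters listed for Per1 lies at chr11:69098699-69098998 on the plus strand, with an E-box at 166 bases, and the Coq10b promoter at chr1:55052520-55052819 on the plus strand, with an E-box at 78 and a D-box at 162 bases. Of the genes that rose, Aqp8 lies at chr7:123462044-123462343 on the plus strand with an E-box at 75 bases, and Dhrs9 at chr2:69380212-69380511 on the plus strand with a ROR element core at 88 bases.
Ciart: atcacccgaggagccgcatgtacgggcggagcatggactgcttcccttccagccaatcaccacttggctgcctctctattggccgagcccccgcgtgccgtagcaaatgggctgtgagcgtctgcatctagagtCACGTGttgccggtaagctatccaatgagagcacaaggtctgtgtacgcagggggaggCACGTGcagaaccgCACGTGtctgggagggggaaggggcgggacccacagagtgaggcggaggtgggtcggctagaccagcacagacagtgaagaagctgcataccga
Per1: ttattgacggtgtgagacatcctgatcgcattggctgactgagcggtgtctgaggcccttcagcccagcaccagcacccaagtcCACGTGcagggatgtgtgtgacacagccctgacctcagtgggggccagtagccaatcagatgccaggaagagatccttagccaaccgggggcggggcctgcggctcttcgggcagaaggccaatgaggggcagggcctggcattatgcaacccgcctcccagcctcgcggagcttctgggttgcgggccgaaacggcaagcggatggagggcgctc
Coq10b: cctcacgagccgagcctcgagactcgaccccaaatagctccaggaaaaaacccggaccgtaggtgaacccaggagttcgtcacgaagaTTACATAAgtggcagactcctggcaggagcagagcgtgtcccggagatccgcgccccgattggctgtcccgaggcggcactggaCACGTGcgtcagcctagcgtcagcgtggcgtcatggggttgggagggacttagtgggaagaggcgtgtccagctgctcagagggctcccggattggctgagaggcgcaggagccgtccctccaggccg
Aqp8: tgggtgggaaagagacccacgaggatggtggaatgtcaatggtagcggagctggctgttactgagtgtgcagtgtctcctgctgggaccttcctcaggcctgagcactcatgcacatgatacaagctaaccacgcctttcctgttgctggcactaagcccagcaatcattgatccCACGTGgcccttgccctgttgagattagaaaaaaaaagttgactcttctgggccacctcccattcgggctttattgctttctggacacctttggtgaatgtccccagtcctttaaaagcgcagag
Dhrs9: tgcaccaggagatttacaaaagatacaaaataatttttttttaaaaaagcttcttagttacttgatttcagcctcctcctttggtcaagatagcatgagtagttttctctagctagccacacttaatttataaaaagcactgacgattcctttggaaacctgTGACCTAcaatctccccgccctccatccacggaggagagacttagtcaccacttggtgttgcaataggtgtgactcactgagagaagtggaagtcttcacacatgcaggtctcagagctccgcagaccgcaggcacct

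Each motif was searched on both strands as exact letters. An E-box was present in 4 of the 18 genes that fell and have a promoter in the RefSeq table (Ciart, Coq10b, Per1 and Pfkfb2) and in 2 of 8 that rose (Aqp8 and Lasp1), against 9.50% of 15612 genes. The D-box was found in Coq10b alone among the called genes (0.999% of all), and the ROR element core in Dhrs9 alone (2.63% of all). Parts of a heat shock element, GAANNTTC or TTCNNGAA, were found in Ccdc84, Dnajb4 and Pfkfb2, 3 of the 18, against 15.4% of all. The promoter of Nr1d1 held none of these motifs, and neither did the second promoter listed for Per1. The E-box shares rest on few genes and were not tested, and E-boxes stood before genes that moved in opposite directions.

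Whether the step at night differed from the step 12 h away was tested with CT06 minus CT03, which uses separate arrays. The difference of the steps was called in 90 of 19935 genes (0.451%), 35 positive and 55 negative, and 19 of the 29 genes called in CT18 minus CT15 were among them. This overlap is not independent of the 29 calls, because the difference contains the same CT18 minus CT15 step and the same spread. Lasp1 and Dnajc18 were called for it with steps by day of only -0.061 and 0.015. For Ciart the step was -1.42 at night and 1.03 by day, for Nr1d1 -1.63 and 0.69, and for Per1 -0.69 and 0.50. Aqp8 differed by 1.02 at night and by -0.41 by day, and Coq8a by 0.45 and -0.27. In 23 of the 29 genes the steps had opposite signs, as they had in 60.4% of all genes. The 10 genes without a call for the difference were Csad, Nfxl1, Akap5, Adipor2, Taok2, Cbr1, Cyp39a1, Pfkfb2, Rgs12 and Dnajb4. Csad differed by -0.80 at night and by -0.17 by day, and Nfxl1 by -0.74 and -0.19. Among clock genes that were not called at night, Arntl had a difference of the steps of 1.70 ± 0.18 (SE; adjusted p = 0.00013), from 0.46 at night and -1.25 by day. Dbp had -2.73 (adjusted p = 0.0018), from -0.86 at night and 1.86 by day.

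**Figure D3:**
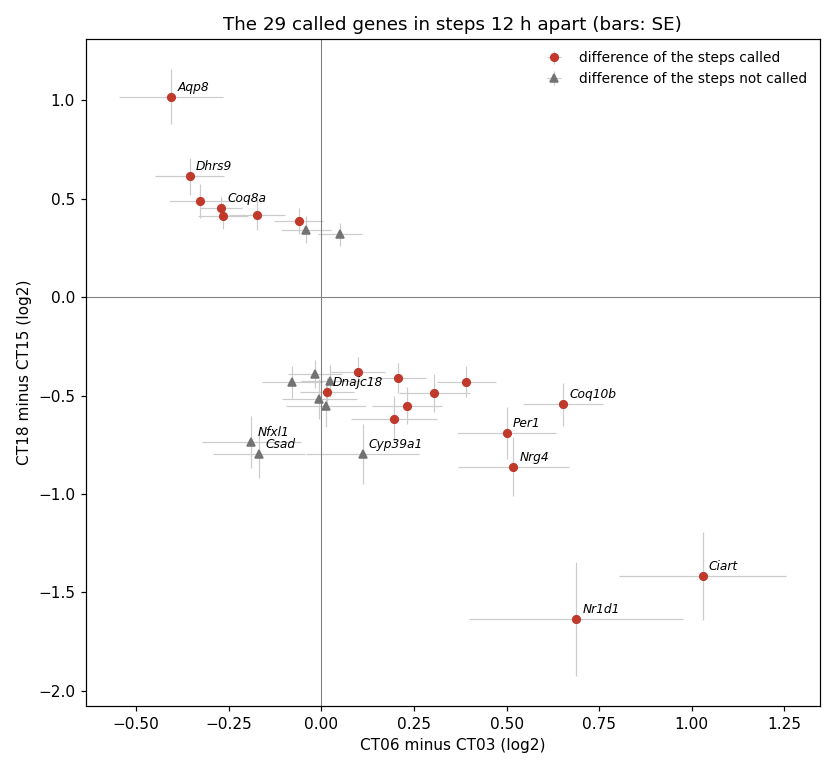
CT18 minus CT15 (vertical axis, log2) against CT06 minus CT03 (horizontal axis, log2) for the 29 called genes, with bars for the standard errors; red circles are the 19 genes whose steps differ by the test and grey triangles the other 10. Ciart and Nr1d1 lie lowest and to the right, Aqp8 highest and to the left, and Csad and Nfxl1 lie below 0 on both axes.

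The other 18 arrays give a view of the same genes that holds no CT18 or CT15 array. They did enter the calls, because the spread per gene was estimated from all 24 arrays. The number of called waves among the 29 is thus not independent of the calls. A 24 h cosine was called in 1865 of all genes in the other 18 arrays (9.36%) and in 18 of the 29. The fitted wave gave the observed sign of CT18 minus CT15 in 27 of the 29 genes, against 61.3% of all genes. In Dnajc18 and Cyp39a1 it predicted differences of 0.0067 and 0.00072, close to 0, where -0.48 and -0.80 were measured. Some of the 27 matching signs also rest on predictions close to 0. Rgs12 had 1.2e-05 where 0.34 was measured, and Csad had -0.011 where -0.80 was measured. For Nr1d1 the wave of the other times gave -0.80 where -1.63 was measured, for Ciart -0.92 where -1.42 was measured and for Aqp8 0.68 where 1.02 was measured. For Coq8a it gave 0.44 beside a measured 0.45. The 11 called genes with no called wave in the other arrays were Dnajc18, Csad, Nfxl1, Akap5, Adipor2, Taok2, Cbr1, Cyp39a1, Ccdc84, Rgs12 and Dnajb4. Rgs12 had an adjusted p of 0.999 for the wave and Taok2 of 0.592.

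The medians of lipid synthesis and lipid oxidation genes lay on different sides of 0, although limma called none of their members. In the list of fatty acid and triglyceride synthesis, 0 of 26 genes were called and 14 had an unadjusted p under 0.05, against 11.3% of all genes. The median difference was 0.13, or 0.060 without replicate 3 of CT15, and 19 differences were positive. The CT18 arrays lay above the CT15 arrays without overlap in 9 genes and below them in 3, against 5.35% and 5.61% of all genes. Acacb, which encodes an acetyl-CoA carboxylase whose product malonyl-CoA blocks fatty acid entry into mitochondria, read 0.49, 0.52 and 0.50 at CT18 and -0.12, -0.13 and -0.28 at CT15. Its difference of 0.68 ± 0.14 (SE) narrowly missed the threshold, with an adjusted p of 0.0511. The other non-overlapping genes, named after their values were seen, were Pnpla3 with 0.67, Acly with 0.46, Acss2 with 0.43, Gpam with 0.42, Elovl3 with 0.39, Pnpla5 with 0.36, Agpat2 with 0.28 and Thrsp with 0.20 on the higher side. Lpin1 with -0.54, Fads2 with -0.42 and Elovl2 with -0.32 were on the lower side.

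Of 25 genes of fatty acid oxidation and PPAR alpha targets, 0 were called and 4 had an unadjusted p under 0.05, against 11.3% of all genes. In this list 20 differences were negative, against 45.6% over all genes, and the median was -0.15. Cpt1a, the gene of the mitochondrial carnitine palmitoyltransferase that malonyl-CoA inhibits, read -0.22, -0.37 and -0.16 at CT18 and 0.38, 0.031 and 0.16 at CT15. Its difference was -0.44 ± 0.09 (SE; adjusted p = 0.0507), just outside the threshold. Ppargc1a, named after its values were seen, had -0.37 (adjusted p = 0.26). Cholesterol synthesis and uptake had 0 of 22 genes called, 4 with an unadjusted p under 0.05 (11.3% of all genes) and a median of 0.065. Dhcr7, the gene of the last step of cholesterol synthesis, differed by 0.29 (adjusted p = 0.255). The list of bile acid synthesis and transport does not hold Cyp39a1. It had 0 of 22 genes called and 8 with an unadjusted p under 0.05 (11.3% of all genes). Its member of smallest p, Cyp8b1, the sterol hydroxylase of cholic acid synthesis, read -0.027, 0.065 and -0.030 at CT18 and -1.06, -0.71 and -0.054 at CT15, a difference of 0.61 (adjusted p = 0.124) that 2 of the 3 CT15 arrays carry.

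Pck1, the gene of phosphoenolpyruvate carboxykinase in gluconeogenesis, had a wider difference than any called gene but was not called. It read -1.17, -1.50 and -1.18 at CT18 and 1.24, -0.57 and 0.79 at CT15, so the groups did not overlap but replicate 2 of CT15 stood far below the other CT15 arrays. The difference was -1.77 ± 0.36 (SE) with an adjusted p of 0.0505. Without replicate 2 of CT15 it was -2.30 with an adjusted p of 0.0021, a call, and without replicate 3 of CT18 the adjusted p was 0.0477. Without replicate 1 of CT15 it was -1.39 with an adjusted p of 0.151, and without replicate 2 of CT18 the adjusted p was 0.264. CT18 was the lowest time of the day for Pck1, with a mean of -1.28. Among 21 genes of gluconeogenesis and amino acid catabolism, 0 were called and 6 had an unadjusted p under 0.05, against 11.3% of all genes. In this list 17 differences were negative, against 45.6% over all genes, and the median was -0.05. Gys2, the liver glycogen synthase gene, differed by -0.34 (adjusted p = 0.222). Its list of glycogen and glycolysis does not hold Pfkfb2. That list had 0 of 15 genes called and 3 with an unadjusted p under 0.05 (11.3% of all genes).

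Genes of sulfur amino acid, taurine and glutathione metabolism had 2 of 16 members called lower, Csad and Gss, against 0.100% of all genes. None was called higher (0.0451% of all genes). The median was -0.14, and 7 of the 16 had CT18 arrays below all CT15 arrays, against 5.61% of all genes. The uncalled among these were Cbs, Gclc, Gclm, Gsr and Mtr, chosen after their values were seen, with differences between -0.23 and -0.16. Of 13 glucocorticoid-responsive genes 1 was called lower, Per1, against 0.100% of all genes, 0 higher, and the median was -0.23. Fkbp5, which encodes a co-chaperone of the glucocorticoid receptor, had -0.65 (adjusted p = 0.076), and the metallothionein genes Mt1 and Mt2 had -0.68 (adjusted p = 0.27) and -0.70 (adjusted p = 0.40). Xenobiotic metabolism had 0 of 25 genes called and 7 with an unadjusted p under 0.05 (11.3% of all genes). In 8 of its genes the CT18 arrays lay below the CT15 arrays (5.61% of all genes), its median was -0.11, and Abcb1a, a drug efflux pump gene, had -0.43 (adjusted p = 0.0759). Nampt, the gene of the enzyme that limits NAD salvage, read 0.14, 0.25 and 0.41 at CT18 and 0.70, 0.83 and 0.81 at CT15, a difference of -0.51 ± 0.11 (SE; adjusted p = 0.0637). It was the member of smallest p in a list of 18 genes of NAD metabolism. In that list 0 were called and 5 had an unadjusted p under 0.05 (11.3% of all genes).

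The list of 23 heat shock chaperones had 1 gene called lower, Dnajb4, against 0.100% of all genes, 0 called higher, and a median of -0.11. Of its differences 16 were negative and 7 positive, the highest 0.19. The CT18 arrays lay below all CT15 arrays in 5 genes and above them in 1. Dnajb1 had -0.47 (adjusted p = 0.22) and Hspb1 -0.30 (adjusted p = 0.52). The list of 31 endoplasmic reticulum chaperones and unfolded protein response genes had Herpud1 called lower (0.100% of all genes) and 0 called higher. Its median was 0.047, with 20 positive differences. That median was -0.033 without replicate 1 of CT15, -0.028 without replicate 3 of CT18 and -0.0099 without replicate 3 of CT15. In lists of RNA and protein production and breakdown most differences were small and negative, against 45.6% negative over all genes. This lean was not particular to these lists. Reference genes had 8 negative and 2 positive differences (median -0.034), and hepatocyte markers also 8 and 2 (median -0.048). Some lists leaned the other way, such as cholesterol synthesis and uptake with 6 negative and 16 positive differences. Of 29 ribosome biogenesis genes 26 differences were negative with a median of -0.067, of 22 translation factor genes 20 with -0.09, of 25 proteasome genes 23 with -0.061 and of 24 splicing genes 21 with -0.13. In these 4 lists 0 genes were called and 3, 3, 2 and 5 had an unadjusted p under 0.05 (11.3% of all genes). Of 19 ribosomal protein genes 17 differences were negative with a median of -0.058 and 0 had an unadjusted p under 0.05, and of 18 aminoacyl-tRNA synthetase genes 14 were negative with a median of -0.10 and 4 had one. Without replicate 2 of CT15 the median of ribosome biogenesis was 0.016, that of the synthetases -0.0090, that of translation factors -0.055 and that of splicing -0.072. Eif3c, a subunit gene of initiation factor 3, had the smallest p among the translation factors, with -0.23 (adjusted p = 0.126), and Ncl, the nucleolin gene, in ribosome biogenesis, with -0.38 (adjusted p = 0.0881).

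**Figure D4:**
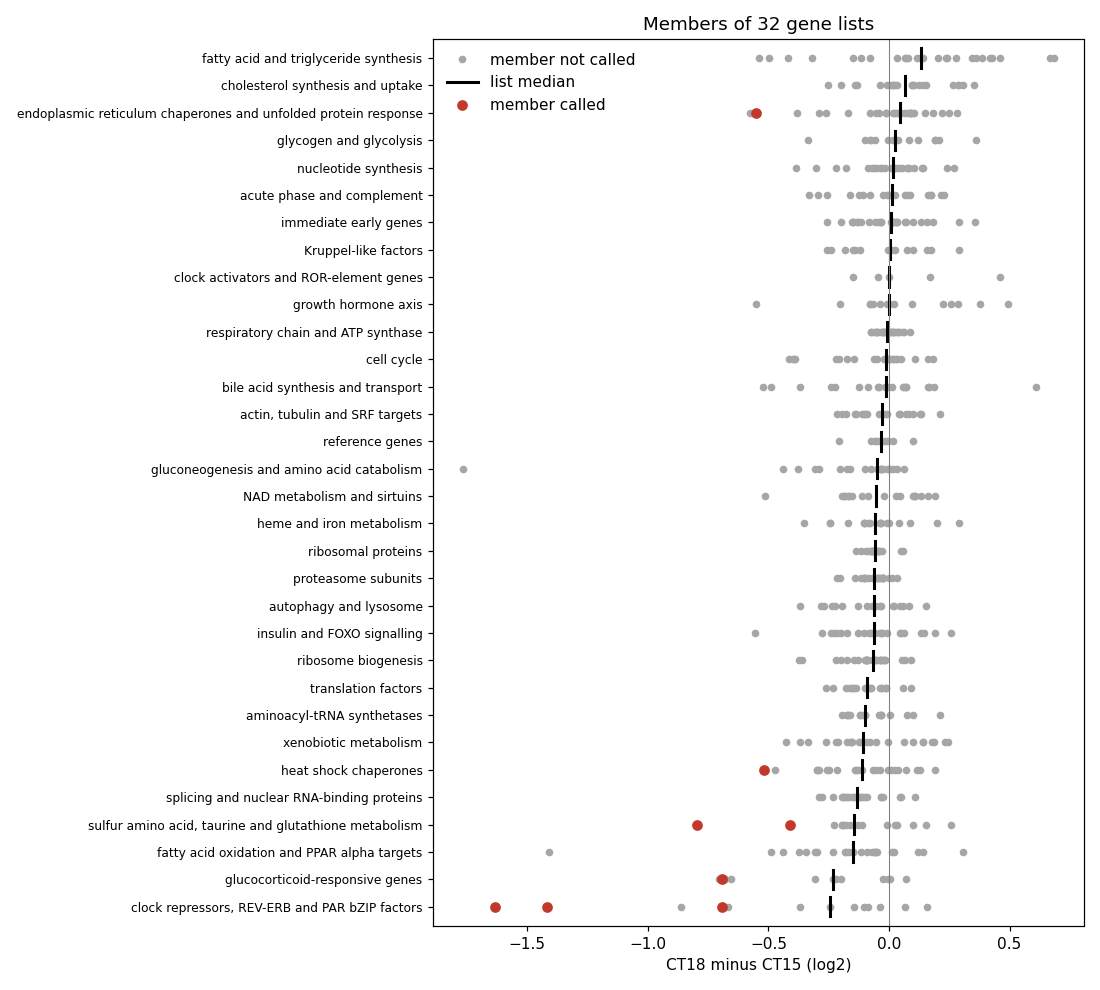
CT18 minus CT15 (horizontal axis, log2) of every measured member of 32 gene lists, ordered by list median (black bars), with called members in red and the others in grey. The list of clock repressors, REV-ERB receptors and PAR bZIP factors has a median of -0.25 and 3 called members, the glucocorticoid-responsive genes have -0.23 and 1, and fatty acid and triglyceride synthesis has 0.13 and no called member.

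In the 11 lists of cell-type markers limma called 0 genes. Over all genes 11.3% had an unadjusted p under 0.05. Among the markers this held for 1 of 10 hepatocyte, 2 of 10 endothelial, 2 of 9 neutrophil and 2 of 5 bile duct markers. It also held for 1 of 10 stellate cell, 1 of 6 adipocyte and 1 of 8 muscle markers, and for 0 Kupffer cell, lymphocyte, red blood cell or pancreas markers. Differences were positive in 8 of 8 muscle, 6 of 6 adipocyte, 9 of 10 lymphocyte and 8 of 9 neutrophil markers, with medians of 0.076, 0.069, 0.060 and 0.056. Over all genes 45.6% of differences were negative. With the small nucleolar RNA average as a covariate, a fit added after the data were seen, these medians were 0.036, -0.011, 0.058 and 0.035. Of these markers only 1 adipocyte marker lay in the brighter class. The list mean of hepatocyte markers over the arrays was -0.080 to 0.016 at CT18 and -0.014 to 0.039 at CT15, and that of Kupffer cell and macrophage markers -0.060 to 0.085 at CT18 and -0.17 to 0.31 at CT15. Endothelial markers had CT18 arrays below CT15 arrays in 3 of 10 genes (5.61% of all genes), with Lyve1 at -0.51 (adjusted p = 0.15) and Pecam1 at -0.22 (adjusted p = 0.28). Their list mean was -0.065 to 0.025 at CT18 and -0.013 to 0.20 at CT15. In whole liver, fewer cells of a type and less RNA per cell cannot be told apart, and the part of cell composition in the calls was not tested.

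The number of calls at this step was near the middle of the 8 steps between neighbouring times. CT09 minus CT06 had the most, 0.853% of genes, followed by CT15 minus CT12 with 0.567%, CT21 minus CT18 with 0.216%, CT06 minus CT03 with 0.140% and CT12 minus CT09 with 0.105%. CT03 minus CT00 and CT00 minus CT21 had 0.00502% each. Neighbouring steps share arrays, so their calls are not independent.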

How the data were processed

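The authors deposited 1 table of log2-like values for 24 arrays, with each probe set's median over the arrays at 0. Per the labels, total RNA of each liver was labelled and hybridised to its own Affymetrix Mouse Gene 1.0 ST array; the labels name no background correction, summarisation or log base. The table holds 28815 probe sets, of which 21780 carry one symbol, 1605 several and 5430 are not listed in the platform annotation. Probe sets of one symbol were averaged (998 genes had several), which gave 19935 genes. Old symbols were checked through 21689 Entrez identifiers found in RefSeq, and 0 changed. Levels cannot be read from centred values, but their rounding steps show whether the uncentred value was above or below 8 on the log scale.

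limma 3.58.1 in R 4.3.3 fitted the 8 time means to all 24 arrays, with moderated tests of CT18 minus CT15 and of its difference from CT06 minus CT03, Benjamini-Hochberg adjustment over all genes and a threshold of 0.05. Fold sizes are 2 to the power of the difference. The p-values measure the spread between the biological replicates. A cosine and sine of 24 h were fitted to the 18 other arrays. On simulated data with the real spread, 73% of 100 genes changed by 0.4 and 99% of 100 changed by 0.8 were found in CT18 minus CT15, with 11 false calls. For the difference of the steps 42% and 89% were found, with 9 false calls. The simulated noise was independent and, for a given gene, equally wide on every array, whereas the real arrays differed in width. More genes were also found in the simulation than the 29 called here, and the Benjamini-Hochberg cutoff loosens as more genes pass. On both counts the shares found may be too high for these data.

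The comparison, the gene lists and the tests were chosen with earlier results of these data known. Genes named by rule are all clock list members, up to 20 called genes in each direction whose groups do not overlap, the called members of each other list (at most 5) or the member of smallest p, and the 5 smallest p of the difference of the steps. Other names were chosen after their values were seen. Replicate numbers are in the labels. Deviations from the time means correlated at 0.36, -0.31 and -0.07 between the same-numbered CT18 and CT15 arrays. So few values cannot decide whether the numbers pair the samples, and the main fit used no pairing. Other settings tried were the arrays in the fit, a replicate block, quantile normalisation, median subtraction, array weights, robust or no moderation, the choice of probe set, filters on brightness and spread, other thresholds and leaving out each array. A fit without both second replicates and a small nucleolar RNA covariate were added after the data were seen. Probe sets with several symbols or none were tested only in 1 alternative and are not named.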

Additional observations from a re-analysis of the deposited data

Results flagged for a closer look

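For 26 genes named by rule the CT18 minus CT15 step differed from the step 12 h away, CT06 minus CT03, by limma's test of the difference itself, with an adjusted p under 0.05 over all genes. The share over all genes was 0.451%. The number 26 depends on how genes were named, since the rules used this test and the CT18 minus CT15 call, which is part of it. Values are (CT18 minus CT15) minus (CT06 minus CT03), in log2 units. Among clock genes, Dbp had -2.73, Ciart -2.45, Nr1d1 -2.32, Arntl 1.70, Per1 -1.19, Tef -1.16 and Per3 -0.96. Of these, Dbp, Arntl, Tef and Per3 were not called in CT18 minus CT15, and each had the larger of its steps by day. Among metabolic genes, Aqp8 had 1.42, Nrg4 -1.38, Coq10b -1.20, Acacb 1.01, Dhrs9 0.97, Cpt1a -0.90, Gys2 -0.75, Coq8a 0.72, Gss -0.62 and Hacl1 0.59. The transporter gene Slc5a6 had -0.82, and the glycolipid genes B4galt5 and St3gal5 had -0.82 and -0.79. Herpud1 had -0.78, Dnajc18 -0.50, Ccdc84 -0.48, Dtx4 0.68, Lasp1 0.45 and the retrocopy Rps23rg1 0.82.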

How the results depend on the processing

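The counts depend on the processing; they are given as genes higher at CT18, genes lower at CT18 and genes whose step differs from CT06 minus CT03, which were 9, 20 and 90. With the replicate number as a block they were 16, 45 and 161, and whether the numbers pair the samples was not settled. Array weights gave 34, 97 and 230, and genes above the median spread 17, 43 and 139. Quantile normalisation gave 1, 0 and 128, keeping Aqp8 alone of the 29, and a test without moderation 7, 2 and 29. A threshold of 0.01 gave 2, 0 and 22, and a fold of at least 1.5 gave 2, 8 and 69. The 6 arrays alone gave 0 higher and 3 lower and no value for the other steps. Leaving out each array in turn gave 4 to 42, 1 to 90 and 49 to 144; the widest gain came without CT18 replicate 3 or CT15 replicate 2, the deepest loss without CT18 replicate 2. Of the 29 calls, 28 remained without CT18 replicate 3 and 5 without CT18 replicate 2. Leaving out both second replicates gave 10 lower, and a small nucleolar RNA covariate 8 lower; 14 of the 29 remained with the covariate. The cause was not tested. The 27 signs predicted from the other times became 29 with a straight line from CT12 to CT21. Of 1403 values of named genes under alternatives, 1085 kept direction and call, 259 lost the call, 40 gained one and 19 turned sign. All turned signs were those of uncalled clock genes near 0. Per2 was 0.091 with quantile normalisation, 0.055 without both second replicates and 0.054 with the covariate, and -0.18 to 0.0073 when single arrays were left out. Bhlhe40 was 0.024 with quantile normalisation, 0.11 without both second replicates and -0.24 to 0.21 with single arrays left out. Nfil3 was 0.051 without both second replicates, 0.12 with the covariate and -0.14 to 0.014 with single arrays left out, and Bhlhe41 -0.030 to 0.21. Arntl2 was -0.0046 with quantile normalisation, -0.0077 with medians subtracted, -0.0068 without both second replicates, -0.020 with the covariate and -0.016 to 0.014 with single arrays left out.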

Other observations

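Some genes had wide mean differences between CT18 and CT15 without a call; they were chosen after their values were seen. Mfsd2a, a lysophosphatidylcholine transporter gene, read -0.39, 0.075 and -0.21 at CT18 and 2.07, 0.92 and 1.00 at CT15, without overlap. Its difference was -1.50 ± 0.36 (SE; limma adjusted p = 0.0966), and the difference from the step 12 h away was -2.50 (adjusted p = 0.0300). Moxd1 read 1.92, 0.32 and 1.90 at CT18 and -0.10, -0.098 and -0.11 at CT15, so that 2 of the 3 CT18 arrays carried its difference of 1.49 (adjusted p = 0.118). Onecut1, which encodes a hepatocyte transcription factor, read 0.39, -0.0051 and 0.65 at CT18 and -1.71, 0.44 and -0.81 at CT15, overlapping values with a difference of 1.04 (adjusted p = 0.484). Cyp4a14, a fatty acid hydroxylase gene of the PPAR alpha list, had -1.41 (adjusted p = 0.320), from -0.57, -0.46 and -1.10 at CT18 and 1.14, 0.18 and 0.79 at CT15.

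The cyclin E genes and their kinase gene, Cdk2, had negative differences without a call: Ccne2 had -0.39 (adjusted p = 0.0621), Cdk2 -0.40 (adjusted p = 0.068) and Ccne1 -0.41 (adjusted p = 0.088). Ccne2 read 0.075, -0.16 and 0.061 at CT18 and 0.25, 0.53 and 0.36 at CT15, without overlap. Of 24 cell cycle genes 0 were called by limma, 6 had an unadjusted p under 0.05 (11.3% of all genes) and the median difference was -0.01.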
